A study of Mus musculus with 20 samples.

Results

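9 genes for transcription factors that set and keep T lineage identity (Tcf7, Lef1, Bcl11b, Satb1, Gata3, Sox4, Tox, Myb and Ets1) were followed through the thymic precursors of unconventional intraepithelial lymphocytes, with the question of the order in which they are lost. They were taken as a named list, by gene symbol, out of 25246 genes in the count tables, and all 9 were found. Values were read in 1413 of 1920 sorted wells, those with at least 2000 transcripts after mitochondrial genes and spike-in RNA had been left out.

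The cells were thymic NK1.1- IELPs (intraepithelial lymphocyte precursors), T cells that carry an alpha-beta receptor but no CD4 or CD8 alpha-beta coreceptor, sorted one by one into plates and read by CEL-Seq2, a method that counts the 3′ ends of mRNAs by molecular barcodes. A TBGR mouse of 4 wk, wild type for C-myc and carrying a reporter of the factor T-bet, gave 678 kept cells in 8 libraries, 2 for each of 4 sorted populations. A TBGR C-mycfl/fl mouse of 2 wk, in which the C-myc gene is flanked by recombination sites but intact, gave 470 cells in 8 libraries, each of which held 2 populations. A TBGR C-mycD/DCd4 mouse of 2 wk, in which Cd4-Cre deletes C-myc in cells that express or have expressed Cd4, gave 265 cells in 4 libraries of the T-bet- populations. All carry the T-bet reporter. The series text names 1 mouse per genotype, although the study's text speaks of mice, and the labels tie no library to an animal. So libraries are not taken as separate animals, genotype and mouse cannot be told apart, and no test between animals was made. The TBGR mouse also differs in age from both others. The series text names the sort as NK1.1+, whereas the study's methods name it as NK1.1-, and the latter is followed here.

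Precursors of these lymphocytes are selected in the thymus by strong receptor signals and then gain CD122, the beta chain of the interleukin-2 and interleukin-15 receptor, before T-bet, the factor of type 1 effector lymphocytes. TCF-1 (Tcf7) and LEF-1 bind the same DNA motif and keep early T cells open to the T lineage programme, whereas Bcl11b and Gata3 fix commitment and SATB1 organises chromatin for it. SOX4, TOX, MYB and ETS1 act in thymocyte survival, selection and receptor gene expression.

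The genes that define the sorted gates were read first. Il2rb, which encodes CD122, was at 0 to 19.4 CPM (counts per 1000000 nuclear-encoded transcripts) in all CD122- libraries and at 146 to 554 CPM in all CD122+ libraries. Tbx21, which encodes T-bet, did not exceed 2.14 CPM in the CD122- libraries and in the TBGR mouse reached 64.3 and 214 CPM in both CD122+T-bet high libraries. Klrb1c, the gene of NK1.1, was at 563 CPM in the TBGR mouse and at 81.5 CPM in the C-mycfl/fl mouse among cells sorted as CD122+T-bet high, although NK1.1 protein was gated out. Cd4, whose protein was also gated out, was at 493 and 680 CPM in the CD122-T-bet- libraries of the TBGR mouse, at 56.2 and 63.2 CPM in its CD122+T-bet- libraries, and at 42.7 to 158 CPM and at 32.2 and 56.9 CPM in the CD122-T-bet- libraries of the C-mycfl/fl and C-mycD/DCd4 mice. Myc itself was at 9.96 and 44.5 CPM in the CD122+T-bet- libraries of the C-mycD/DCd4 mouse and at 10.6 to 135 CPM in those of the C-mycfl/fl mouse, and at 16.7 and 30.0 against 14.0 to 63.0 CPM in the CD122-T-bet- libraries. The ranges overlapped, and which exons the deletion removes is not given in the sources used here, so these 3′ counts do not check the deletion.

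Libraries held 22 to 94 kept cells per population with a median of 3298 to 7810 transcripts per cell. The second CD122+T-bet high library of the TBGR mouse kept 55 cells, against 92 in the first, and 4.17% of its transcripts lay on barcodes without a cell, the highest share of the 20 libraries, whose lowest was 0.215%. The fourth C-mycfl/fl library had 22 CD122+T-bet- cells with a median of 3298 transcripts. Over all libraries, barcodes without a cell held 116 member transcripts, against 27179 in all sorted wells, including those later left out for depth. The same 2 sets of 96 cell barcodes were used over all 20 libraries.

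A gene is called lower or higher below when it had at least 50 transcripts in either group, differed at least 2-fold between the summed groups, and its libraries did not overlap between the groups. For the C-mycfl/fl mouse, whose libraries hold both populations, the difference had instead to point the same way in every library. Calls are descriptions of these libraries, and intervals are exact 95% intervals that cover counting error only. In sums over cells, fewer expressing cells and less RNA per cell cannot be told apart. Consecutive steps of a mouse share the population between them, and the comparisons between genotypes reuse libraries of the steps.

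Promoter sequences are given for 4 members whose lowest levels in the TBGR mouse lay at different places in the series, Bcl11b and Satb1 (lowest in the middle populations) and Lef1 and Sox4 (lowest in the last). The 200 bases run from 250 to 51 bases before the most upstream start in RefSeq (GRCm38.p6), 5′ to 3′ on the gene's strand, in lower case, with matches to the TCF/LEF motif CTTTGA (or its reverse complement TCAAAG) in capitals.
Bcl11b (chr12:108003465-108003664, minus strand): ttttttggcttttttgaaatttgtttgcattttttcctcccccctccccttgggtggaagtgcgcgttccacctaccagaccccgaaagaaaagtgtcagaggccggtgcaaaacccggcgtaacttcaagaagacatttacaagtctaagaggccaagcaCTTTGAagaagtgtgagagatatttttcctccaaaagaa
Satb1 (chr17:51833341-51833540, minus strand): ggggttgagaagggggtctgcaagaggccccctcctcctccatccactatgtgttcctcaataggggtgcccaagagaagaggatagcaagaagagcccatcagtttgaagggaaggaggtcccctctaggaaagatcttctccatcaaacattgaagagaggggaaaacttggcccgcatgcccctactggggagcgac
Lef1 (chr3:131110047-131110246, plus strand): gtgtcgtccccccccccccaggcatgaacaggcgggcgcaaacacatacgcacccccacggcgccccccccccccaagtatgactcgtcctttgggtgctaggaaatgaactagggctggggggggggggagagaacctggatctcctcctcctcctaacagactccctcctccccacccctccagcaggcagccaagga
Sox4 (chr13:28953750-28953949, minus strand): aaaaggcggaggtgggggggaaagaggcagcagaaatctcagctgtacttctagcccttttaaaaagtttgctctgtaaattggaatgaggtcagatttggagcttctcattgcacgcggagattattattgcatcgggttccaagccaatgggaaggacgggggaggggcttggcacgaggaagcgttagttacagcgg
The Bcl11b start in RefSeq lies inside the longer GENCODE gene given below, so most of its window, with the letters in capitals, falls within that gene. The Bcl11b window held 1 match to the TCF/LEF motif, and the other 3 windows held none, whereas 11.8% of 32817 RefSeq windows of this length held at least 1. None of these 4 windows held the GATA motif AGATAA, the RUNX motif TGTGGT, the ETS motif CGGAAG or the T-box motif GGTGTGA on either strand, which were present in 8.42%, 11.6%, 9.24% and 2.72% of all windows. 7 of the 9 members had a promoter entry. Among the windows not printed, that of Myb held 1 match to the T-box motif, and those of Tcf7 and Gata3 held no match to any of these motifs. Tox and Ets1 had none. A match is a description of the letters and not a bound site.

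Satb1 and Bcl11b were lower by the widest margin at the first step of the TBGR mouse, where CD122+T-bet- cells are set against CD122-T-bet- cells. Satb1 (chr17:51736187-51833290, GRCm38, minus strand), which loops chromatin at T cell genes, was at 2911 and 2241 CPM in the CD122- libraries and at 405.0 and 405.1 CPM in the CD122+ libraries. Its log2 ratio was -2.67 (-2.80 to -2.54), and 0.241% of the genes tested had a ratio as low or lower. Bcl11b (chr12:107910403-108003602, minus strand), a zinc finger factor of T cell commitment, was at 1023 and 769 CPM and then at 276 and 254 CPM, a log2 ratio of -1.75 (-1.93 to -1.58). The libraries of both genes lay far apart between the groups. 2 of 9 members were called lower and 0 were called higher, where 2.45% of 4975 genes tested were called lower and 12.5% higher. The median of the 9 members was -0.75 on the log2 scale, beside 0.33 over all genes tested.

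Lef1, Gata3, Tcf7, Tox and Ets1 were also lower at this step, but by less than 2-fold. Of the genes tested, 2.71% (Lef1) to 6.25% (Ets1) had a ratio as low or lower. Their libraries did not overlap, and how many of all genes tested were separated in this way was not counted. Lef1 (chr3:131110471-131224356, plus strand) was at 668 and 463 CPM in CD122- cells and at 290.2 and 278 CPM in CD122+ cells, a log2 ratio of -0.99 (-1.17 to -0.80). Gata3 (chr2:9857078-9890034, minus strand), which directs CD4 lineage choice and early T cell growth, was at 312 and 279.9 CPM and then at 157 and 141 CPM, a log2 ratio of -0.98 (-1.24 to -0.72). Both stood just inside the 2-fold limit, and both were called lower with equal weight per cell (Lef1 -1.15, Gata3 -1.12), without the first CD122+T-bet- library (Lef1 -1.02, Gata3 -1.06) or without the second CD122-T-bet- library (Lef1 -1.23, Gata3 -1.06). Tcf7 (chr11:52252371-52283014, minus strand) was at 859.9 and 942 CPM in CD122- cells and at 495 and 585 CPM in CD122+ cells, a log2 ratio of -0.75 (-0.89 to -0.61). Tox (chr4:6686353-6991557, minus strand), an HMG box factor of thymic selection, was at 366 and 286 CPM and then at 224 and 222 CPM. Ets1 (chr9:32636221-32757820, plus strand), the founding member of the ETS family, was at 705 and 701 CPM and then at 473 and 493 CPM.

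Sox4 and Myb stood apart from these, with higher levels in CD122+T-bet- than in CD122-T-bet- cells. Sox4 (chr13:28948919-28953713, minus strand), an HMG box factor that promotes survival of early lymphocytes, was at 380.4 and 364 CPM in CD122- cells and at 504 and 466 CPM in CD122+ cells, a log2 ratio of 0.38 (0.20 to 0.57). That ratio lay close to the median of all genes tested at this step, 0.33. Myb (chr10:21124935-21160984, minus strand), a regulator of lymphoid progenitors and of double positive thymocytes, rested on few transcripts, 19 and 26 in the CD122- libraries and 41 and 64 in the CD122+ libraries, or 39.3 and 52.4 against 52.9 and 92.3 CPM. Without the first CD122+T-bet- library its log2 ratio was 1.002 and it was called higher.

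At the second step of the TBGR mouse, which sets CD122+T-bet int cells against CD122+T-bet- cells, Sox4 had the lowest ratio of the 9 members. Sox4 was at 504 and 466 CPM and then at 117 and 120.2 CPM, a log2 ratio of -2.03 (-2.30 to -1.78), so that 1 step after its highest level it stood at 31.8% of its CD122- level. Bcl11b was at 276 and 254 CPM and then at 127 and 136 CPM, a log2 ratio of -1.01 (-1.28 to -0.75), its lowest level in this mouse. Myb was at 52.9 and 92.3 CPM and then at 28.8 and 33.2 CPM, a log2 ratio of -1.20 (-1.77 to -0.67). These 3 of 9 members were called lower and 0 were called higher, where 4% of 5195 genes tested were called lower and 2.73% higher. Bcl11b stood at the 2-fold limit and was not called without 1 of the libraries, with a log2 ratio of -0.96 without the first CD122+T-bet int library and -0.95 without the first CD122+T-bet- library. Myb was not called without the second CD122+T-bet- library (-0.77).

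Tcf7 did not follow them. It was at 561 and 504 CPM in CD122+T-bet int cells, within the range of the CD122+T-bet- libraries, with a log2 ratio of -0.01 (-0.16 to 0.14). The libraries of Lef1, Satb1 and Gata3 also overlapped between these populations, with log2 ratios of -0.10, -0.00 and 0.11. Tox was at 183 and 158 CPM against 224 and 222 CPM, a separation of less than 2-fold. Ets1 was higher at this step, at 656 and 585 CPM against 473 and 493 CPM, a log2 ratio of 0.36 (0.22 to 0.51). The median of the 9 members was -0.10, beside 0.02 over all genes tested.

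At the third step of the TBGR mouse, which sets CD122+T-bet high cells against CD122+T-bet int cells, the factors of the TCF-1 group were at their lowest while Bcl11b was higher again. Tcf7 was at 561 and 504 CPM and then at 50.9 and 94.2 CPM, a log2 ratio of -3.02 (-3.49 to -2.60), which left 7.24% of its CD122- level. Lef1 was at 297 and 234 CPM and then at 89.1 and 119.9 CPM, a log2 ratio of -1.41 (-1.81 to -1.05). Tox was at 183 and 158 CPM and then at 53.0 and 21.4 CPM, a log2 ratio of -1.99 (-2.61 to -1.45). Sox4 was all but absent, with 0 transcripts in the first CD122+T-bet high library and 1 in the second, against 77 and 76 in the CD122+T-bet int libraries. Its log2 ratio was -5.80 with a counting interval of -11.7 to -3.88. Myb had 1 and 2 transcripts against 19 and 21, under the 50 needed for a call, and its log2 ratio was -2.66 (-5.20 to -1.21).

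Bcl11b, by contrast, was higher in CD122+T-bet high cells, at 327 and 257 CPM against 127 and 136 CPM, a log2 ratio of 1.21 (0.91 to 1.51). Its libraries then overlapped those of the CD122+T-bet- cells and stayed at 33.9% of the CD122- level. Satb1 was at 709 and 707 CPM against 389 and 419 CPM, a log2 ratio of 0.81 (0.63 to 0.99), and Gata3 stood back at its CD122- level. Gata3 was at 312 and 266 CPM against 156 and 168 CPM, a log2 ratio of 0.87 (0.59 to 1.16). Ets1 was level, at 668 and 557 CPM against 656 and 585 CPM. 4 of 9 members were called lower (Tcf7, Lef1, Sox4 and Tox) and 1 higher (Bcl11b), where 11.5% of 4473 genes tested were called lower and 5.61% higher, and 8 of 9 members had enough transcripts. Without the first CD122+T-bet high library the log2 ratio of Bcl11b was 0.97 and it was not called. Without the second, which held the most transcripts on barcodes without a cell, the 4 lower calls and that of Bcl11b stood. With equal weight per cell Gata3 was called higher as well (1.33).

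Markers of other cell types and of division moved beside these steps, and their part in the values was not tested. The 9 markers of double positive thymocytes summed to 673 and 792 CPM in the CD122-T-bet- libraries of the TBGR mouse and to 67.9 to 287 CPM in its other libraries, with Rag1 and Rag2 at 0 in CD122+T-bet- cells, and Cd4 had a log2 ratio of -3.28 at the first step. The 5 markers of dividing cells summed to 107 and 213 CPM in CD122-T-bet- libraries, to 797 and 1044 CPM in CD122+T-bet- libraries, to 1595 and 1833 CPM in CD122+T-bet int libraries and to 99.7 and 535 CPM in CD122+T-bet high libraries. The 5 markers of NK cells or ILC1 summed to 604 and 883 CPM in CD122+T-bet high libraries, against 364 and 402 CPM in CD122+T-bet int libraries, with Ncr1 at 0 in all 8 TBGR libraries and Eomes at 0 in the CD122+T-bet high ones. The sums of the 6 gamma-delta markers listed ranged from 318 to 1555 CPM in this mouse, and Trdc, the constant region of the delta chain, was at 0 in CD122+T-bet high cells. Every cell with at least 2 markers of B cells, of myeloid cells or of gamma-delta T cells was then removed. This took out 48 of 174, 136 of 186, 139 of 171 and 114 of 147 cells in the order of the series. Most of them went through the gamma-delta list, which flagged 107 of the 147 CD122+T-bet high cells. Its genes Trdc, Sox13 and Blk were at 0 there, so these flags rested on its other genes. A flag does not by itself make a cell one of another type. In the cells that remained the log2 ratio of Bcl11b was -0.19 at the second step and 0.36 at the third, while Sox4 at the second and Tcf7 at the third (-3.66) were still called lower. Myb at the second step (-1.06) and Lef1 (-1.10), Sox4 (-4.83) and Tox (-2.35) at the third were no longer called, with ratios still past 2-fold.

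**Figure D1:**
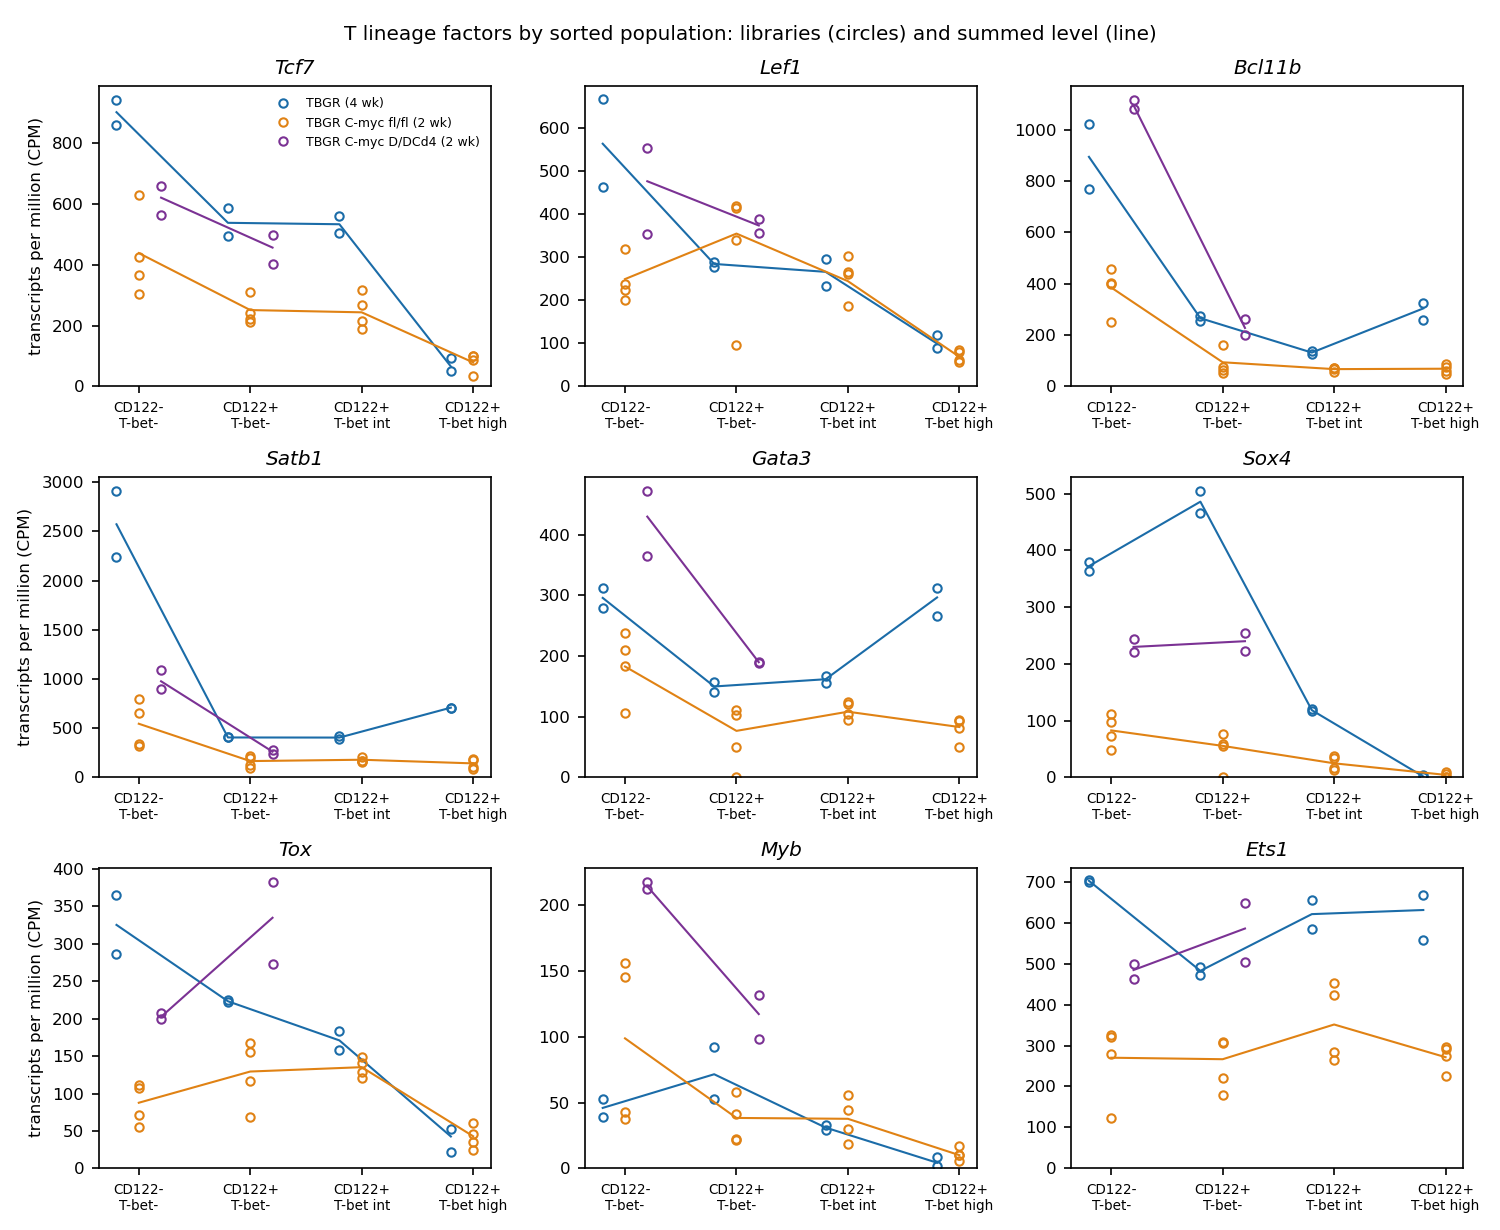
Level of each member (y axis, CPM, from 0) in the 4 sorted populations (x axis), with 1 circle per library and a line through the summed level of each genotype. In the TBGR mouse Satb1 and Bcl11b are lower from the second population on, Sox4 from the third population on, and Tcf7 in a first drop at the second population and a larger one at the fourth.

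The order of levels differed between the members in the TBGR mouse. Tcf7 ran from CD122-T-bet- cells through the populations CD122+T-bet- and then CD122+T-bet int, which overlapped, down to CD122+T-bet high cells. Lef1 followed the same order with the same overlap. Tox ran in the order of the series with no overlap between neighbours. Sox4 and Myb were highest in CD122+T-bet- cells, and the CD122- libraries of Myb reached 52.4 CPM, just short of the 52.9 CPM of the lower CD122+T-bet- library. Bcl11b, Satb1 and Gata3 had their lowest levels in the CD122+T-bet- or CD122+T-bet int cells and not in the last population, and in Satb1 and Gata3 those middle populations overlapped.

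The share of cells with a transcript was read for the same populations. To compare shares between libraries of different depth, each cell was thinned to 2000 transcripts. In the TBGR mouse Satb1 was seen in 91.95% of CD122-T-bet- cells (86.9% to 95.5%, 174 cells), in 62.9% of CD122+T-bet- cells, in 53.2% of CD122+T-bet int cells and in 70.1% of CD122+T-bet high cells. Bcl11b was seen in 68.4%, 26.3%, 17.0% and 44.2% of cells in the same order. Both shares were lowest in CD122+T-bet int cells. Tcf7 was seen in 72.4%, 60.8% and 64.9% of cells of the first 3 populations and in 10.2% (5.82% to 16.3%) of 147 CD122+T-bet high cells. Without thinning, the last share was 19.7%. Sox4 was seen in 36.2%, 54.3% and 15.8% of cells and in 0 of 147 thinned CD122+T-bet high cells, which allows a share of cells with a transcript at this depth of up to 2.48% by the exact interval, for counting error only, and does not limit the share that express it. Without thinning, 0.680% of these cells had a Sox4 transcript. Ets1 stayed between 61.3% and 74.3%.

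Of the 9 members, a thinned cell of the TBGR mouse held a transcript of a median of 5 in CD122-T-bet- cells, 4 in CD122+T-bet- cells and 3 in both populations with T-bet. At least 4 members were seen together in 80.5%, 53.8%, 36.8% and 19.7% of cells. In CD122+T-bet high cells, Tcf7 and Lef1 were seen in the same cell in 4 of 147 cells and Bcl11b and Satb1 in 44, where the product of the single shares gives 2.35 and 45.5 cells.

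**Figure D2:**
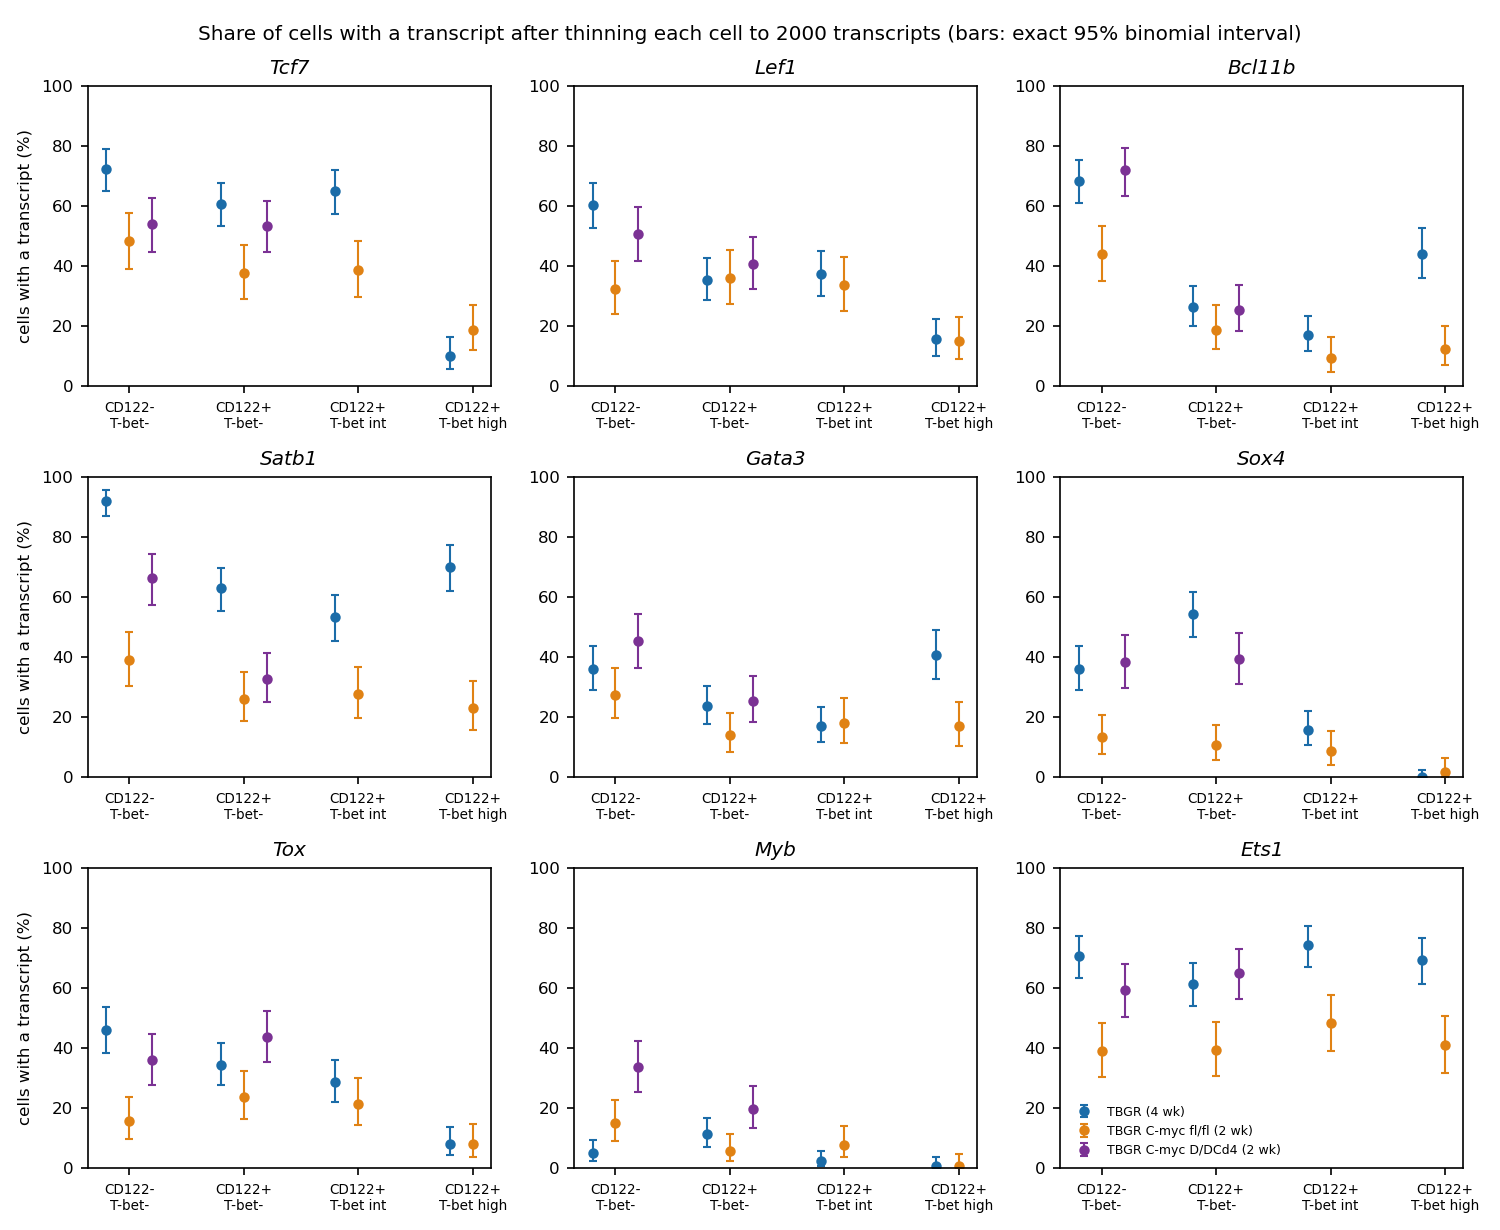
Share of cells with a transcript of each member (y axis, percent) by sorted population (x axis) and genotype after thinning to 2000 transcripts per cell, with exact 95% binomial intervals. In the TBGR mouse Tcf7 and Sox4 are near the axis among CD122+T-bet high cells, at 10.2% and 0, where Satb1 and Ets1 are at 70.1% and 69.4%.

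The 678 TBGR cells were also ordered by diffusion pseudotime on 396 variable genes that included none of the members. The order was cut into 10 bins of 67 or 68 cells. Its start and direction were set from cells sorted as CD122-T-bet-, so the order is not free of the gates. The first bin held 54 such cells, beside 6 from the T-bet high gate and 8 sorted as CD122+T-bet-. The median bins of the 4 populations were 2, 5, 7 and 9. Bcl11b and Satb1 were the first to fall under 50% of their highest bin, at 35% of the ordered cells, reached their minimum at 55% (103 and 309 CPM) and were at 271 and 685 CPM in the last bin. Lef1, Sox4, Tox and Myb fell under 50% at 65% of the cells, and Tcf7 at 75%. Sox4 and Myb were highest at 45%, against 15% for the other members that fell. Gata3 and Ets1 had no such fall after their maximum, and Gata3 was highest in the last bin at 311 CPM.

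The positions were not equally firm. With 10 principal components, 20 bins or any 1 library left out, Satb1 fell at 17.5% to 35% of the cells and Bcl11b at 17.5% to 45%. Tcf7 fell at 45% to 85%, Sox4 at 55% to 75% and Myb at 52.5% to 75%. Lef1 ranged from 37.5% to 75% and Tox from 17.5% to 75%. The place of Lef1 and Tox, and the order of Tcf7, Sox4 and Myb among themselves, are not fixed by these cells. Without the second CD122+T-bet- library Tcf7 fell at 45%, ahead of Lef1, Sox4, Tox and Myb at 55%. With 20 bins Tcf7 fell at 52.5%, level with Myb and ahead of Sox4 at 57.5%. The range of Tox holds those of Satb1 and Bcl11b, and the range of Lef1 overlaps that of Bcl11b. With 20 bins Tox fell at 17.5% of the cells, together with Satb1 and Bcl11b. The places of the maxima moved too. Without the first CD122-T-bet- library Sox4 was highest at 25%, Myb at 15% and Tox at 35%, and without the first CD122+T-bet high library Gata3 was highest at 35%.

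**Figure D3:**
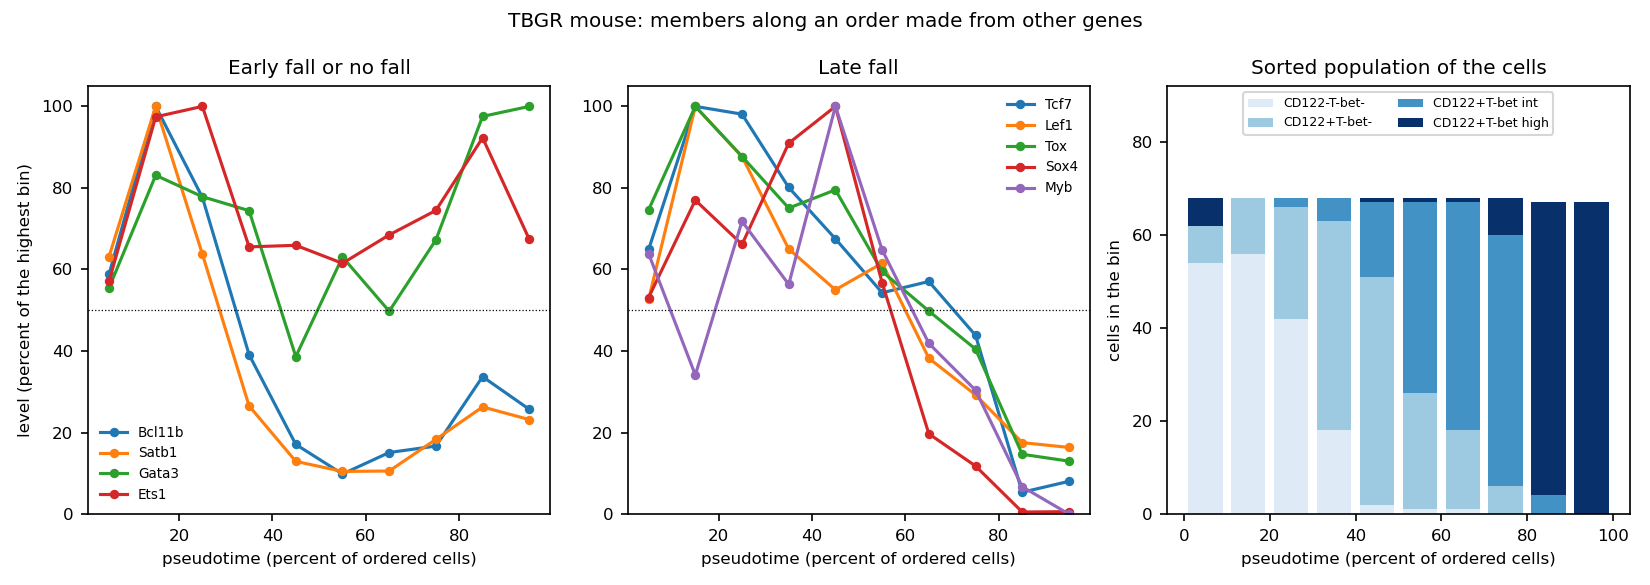
Level of the members as a percent of their highest bin (y axis, left and middle) along pseudotime in the TBGR mouse (x axis, percent of ordered cells), and the number of cells of each sorted population in each of the 10 bins (right). Bcl11b and Satb1 pass under the dotted 50% line at 35% of the cells and are higher again in the last bin than at their minimum, while Tcf7 passes under it at 75%.

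In the C-mycfl/fl mouse the first step was again led by Bcl11b and Satb1, here with both populations in every library. Over the 4 libraries Bcl11b was at 456, 405, 400.3 and 250.02 CPM in CD122-T-bet- cells and at 161, 62.3, 76.7 and 53.0 CPM in CD122+T-bet- cells, a log2 ratio of -2.03 (-2.43 to -1.66). Satb1 was at 315, 656, 796 and 341.5 CPM and then at 221, 98.0, 194 and 127 CPM, a log2 ratio of -1.72 (-2.02 to -1.43). Gata3 was at 238, 209, 107 and 183 CPM and then at 111, 102, 49.6 and 0 CPM, a log2 ratio of -1.25 (-1.72 to -0.81). All 3 were lower in each of the 4 libraries, and Gata3 had 0 transcripts in the 22 cells of the fourth. These 3 of 9 members were called lower and 0 higher, where 2.34% of 2176 genes tested were called lower and 15.6% higher. Gata3 was not called when every cell was thinned to 2000 transcripts (-1.37), nor without cells that carried at least 2 markers of B cells, of myeloid cells or of gamma-delta T cells (-0.77). At this step the 9 markers of double positive thymocytes went from 251 to 480 CPM to 10.6 to 64.5 CPM, with Rag1, Rag2 and Dntt at 0 in CD122+T-bet- cells, and Trdc from 139 to 9.24 CPM, and their part was not tested.

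Tcf7 was lower in all 4 libraries but by less than 2-fold, with a log2 ratio of -0.80 (-1.07 to -0.55). Without the second library it was -1.04 and Tcf7 was called lower. Myb was lower in 3 of 4 libraries, with a log2 ratio of -1.35, and it too was called lower without the second library (-1.98). Lef1 and Tox were higher in 3 of 4 libraries and lower in 1, with log2 ratios of 0.51 and 0.56, near the median of 0.58 over all genes tested. Sox4 was at 97.0, 112, 48.9 and 73.2 CPM in CD122-T-bet- cells and at 55.3, 57.9, 76.7 and 0 CPM in CD122+T-bet- cells, with no shared direction. Without the third library its log2 ratio was -1.02 and it was called lower. Ets1 had a log2 ratio of -0.02 (-0.30 to 0.26).

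The middle populations of this mouse lay in different libraries and no ratio was taken between them, but Sox4 was at 34.3, 16.7, 37.3 and 12.7 CPM in the CD122+T-bet int cells.

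The last step of the C-mycfl/fl mouse, with CD122+T-bet high cells against CD122+T-bet int cells, showed lower Tcf7, Lef1 and Tox but no return of Bcl11b. Tcf7 was at 266, 214, 317 and 189.8 CPM and then at 101, 85.2, 33.0 and 100.1 CPM, a log2 ratio of -1.62 (-2.09 to -1.19). Lef1 was at 266, 187.5, 261 and 304 CPM and then at 55.4, 80.2, 60.5 and 83.4 CPM, a log2 ratio of -1.82 (-2.32 to -1.37). Tox was at 129, 141, 149 and 120.2 CPM and then at 45.3, 35.1, 60.5 and 25.0 CPM, a log2 ratio of -1.64 (-2.29 to -1.07). All 3 were lower in each of the 4 libraries. 3 of 9 members were called lower and 0 higher, where 3.71% of 2478 genes tested were called lower and 2.54% higher. Sox4, with 3 transcripts against 21, and Myb, with 7 against 32, were lower in all 4 libraries but had too few transcripts for a call. Without the cells that carried markers of another type neither Tcf7 (-0.88) nor Lef1 (-1.33) was called, and Tox was not called in thinned cells (-1.77).

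Bcl11b was at 68.6, 70.3, 56.0 and 69.6 CPM in the CD122+T-bet int cells and at 75.6, 85.2, 49.5 and 58.4 CPM in the CD122+T-bet high cells, a log2 ratio of 0.04 (-0.55 to 0.61). It was higher in 2 of 4 libraries and lower in the other two. Satb1 had a log2 ratio of -0.33 (-0.72 to 0.04) and Gata3 of -0.38 (-0.88 to 0.11), with Gata3 lower in all 4 libraries. The levels of both mice are side by side in the plot of levels by library. The mice differ in age and genotype, and their difference was not tested.

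In the C-mycD/DCd4 mouse the first step showed lower Bcl11b, Satb1 and Gata3. Bcl11b was at 1117 and 1082 CPM in CD122-T-bet- libraries and at 264 and 199 CPM in CD122+T-bet- libraries, a log2 ratio of -2.27 (-2.52 to -2.02). Satb1 was at 1091 and 902 CPM and then at 235 and 281 CPM, a log2 ratio of -1.90 (-2.14 to -1.67). Gata3 was at 365 and 472 CPM and then at 191 and 189 CPM, a log2 ratio of -1.18 (-1.48 to -0.89). 3 of 9 members were called lower and 0 higher, where 8.85% of 2587 genes tested were called lower and 14.9% higher. Without the second CD122-T-bet- library the log2 ratio of Gata3 was -0.94 and it was not called. The 9 markers of double positive thymocytes went from 718 and 883 CPM to 132 and 139.7 CPM at this step, with Rag2 and Ptcra at 0 in CD122+T-bet- cells. Of the 4 markers tested, 3 were called lower and 1 higher. Cd8a went the other way, from 28.7 to 69.8 CPM. The part of these markers was not tested. Without cells that carried at least 2 markers of B cells, of myeloid cells or of gamma-delta T cells, Bcl11b, Satb1 and Gata3 were still called lower. Tcf7, at 562 and 658 and then at 403 and 498 CPM, was lower by less than 2-fold.

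Tox went the other way in this mouse. It was at 207 and 199 CPM in CD122-T-bet- libraries and at 273 and 383 CPM in CD122+T-bet- libraries, a log2 ratio of 0.72 (0.43 to 1.03). Ets1 was also higher, at 462 and 499 and then at 505 and 650 CPM, a log2 ratio of 0.27 (0.07 to 0.48). Myb was lower, at 217 and 212 and then at 98.5 and 132 CPM, a log2 ratio of -0.87 (-1.27 to -0.48), and without the second CD122+T-bet- library it was -1.10 and Myb was called lower. Without cells that carried markers of another type the ratio of Myb turned to 0.37. The libraries of Tox, Ets1 and Myb did not overlap, and in each gene the sign was opposite to that of the TBGR mouse. How many of all genes tested did so was not counted. Sox4 was level at 244 and 221 and then at 222 and 254 CPM.

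**Figure D4:**
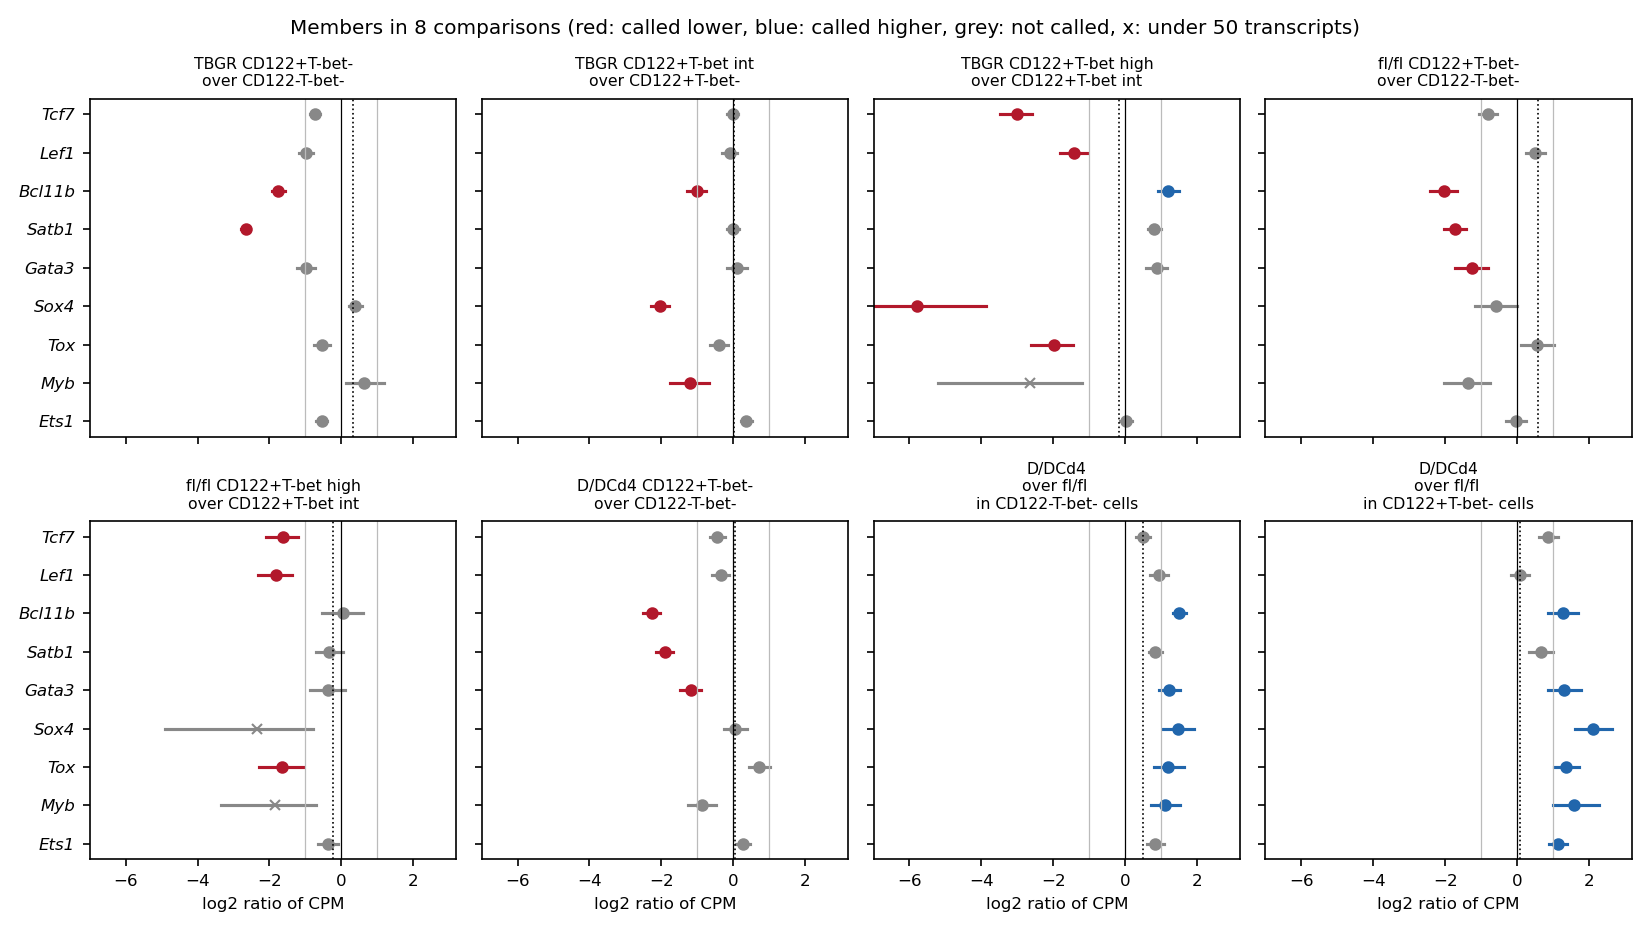
Log2 ratios of CPM (x axis) of the 9 members in the 8 comparisons, with exact 95% counting intervals (bars, cut off at -7), calls in red (lower) and blue (higher), a dotted line at the median of all genes tested and thin lines at 2-fold. Bcl11b and Satb1 are called lower at the first step in all 3 mice, and no member is called lower in the C-mycD/DCd4 mouse against the C-mycfl/fl mouse.

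Between the mice of 2 wk, Bcl11b, Gata3, Sox4, Tox and Myb were called higher in C-mycD/DCd4 than in C-mycfl/fl cells in both populations, and Ets1 in CD122+T-bet- cells. In CD122-T-bet- cells, Bcl11b was at 1117 and 1082 CPM in the C-mycD/DCd4 libraries against 250.02 to 456 CPM in the 4 C-mycfl/fl libraries, a log2 ratio of 1.51 (1.32 to 1.70). Sox4 was at 244 and 221 CPM against 48.9 to 112 CPM, a log2 ratio of 1.47 (1.06 to 1.90). Gata3 (1.23), Tox (1.20) and Myb (1.11) were called higher as well. 5 of 9 members were called higher and 0 lower, where 15.2% of 2175 genes tested were called higher and 0.598% lower. The median of all genes tested was itself 0.49, and relative to it Bcl11b alone stayed past 2-fold (1.01), against 0.97 for Sox4. Tcf7 (0.50) overlapped between the genotypes and lay at that median.

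Several of these calls turned on single libraries. Without the second C-mycD/DCd4 library the log2 ratio of Gata3 was 0.999 and it was not called, and Satb1 (1.003) was. Myb was not called without the second (0.82) or the fourth (0.92) C-mycfl/fl library. Without the first C-mycD/DCd4 library Lef1 was called higher (1.15), and without the third C-mycfl/fl library both Lef1 (1.10) and Satb1 (1.12) were. The 5 markers of dividing cells summed to 2081 and 2229 CPM in the C-mycD/DCd4 CD122-T-bet- libraries and to 116 to 1164 CPM in those of the C-mycfl/fl mouse. The 9 markers of double positive thymocytes summed to 718 and 883 against 251 to 480 CPM, with none of the 9 at 0 in either mouse, and Trdc was at 346 against 139 CPM. The part of such cells in the members' levels was not tested.

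In CD122+T-bet- cells the median of all genes tested was 0.08 and 6 of 9 members were called higher and 0 lower, where 15% of 2627 genes tested were called higher and 9.4% lower. Sox4 was at 222 and 254 CPM in the C-mycD/DCd4 libraries and at 55.3, 57.9, 76.7 and 0 CPM in the C-mycfl/fl libraries, a log2 ratio of 2.10 (1.62 to 2.64). Myb was at 98.5 and 132 CPM against 21.2 to 57.9 CPM, a log2 ratio of 1.60 (0.99 to 2.28). Tox was at 273 and 383 CPM against 69.1 to 167 CPM, a log2 ratio of 1.37 (1.03 to 1.73). Gata3 (1.30), Bcl11b (1.27) and Ets1 (1.13) were called higher too, and Tcf7 had a log2 ratio of 0.86 with no overlap of libraries. Lef1 was level, at 356 and 388 CPM against 341, 419, 415 and 95.5 CPM, a log2 ratio of 0.07 (-0.17 to 0.32).

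Without the second C-mycD/DCd4 library neither Ets1 (0.92) nor Myb (1.36, under 50 transcripts) was called, and without the second C-mycfl/fl library Tcf7 was called higher (1.02). Here the markers of dividing cells ran the other way, at 241.4 and 241.5 CPM in the C-mycD/DCd4 libraries and at 435 to 1407 CPM in the C-mycfl/fl libraries. The 4 markers of regulatory T cells summed to 168 and 209 CPM against 13.8 to 139.8 CPM, and Trdc was at 212 against 9.24 CPM. Removal of cells with at least 2 markers of B cells, of myeloid cells or of gamma-delta T cells left Bcl11b at a log2 ratio of 0.28 and Gata3 at 1.09, both uncalled, and Sox4, Tox, Myb and Ets1 still called. The deletion cannot be told apart from the animal.

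The genes that share motifs or act with the members were read from lists. Of 14 paralogs of the members, 4 had enough transcripts at the first step of the TBGR mouse, and 1 was called in each direction. Sox5 was called higher there (43.6 against 4.08 CPM, log2 ratio 3.26) and Sox13, a factor of gamma-delta T cells, was called lower (14.3 against 104 CPM, log2 ratio -2.84). Sox13 was called lower at the first step in the C-mycfl/fl (-2.61) and C-mycD/DCd4 mice (-2.36) as well, and Tox2 was called lower in the C-mycD/DCd4 mouse (-1.64). Only these paralogs were tested there, 1 and 2, where 2.34% and 8.85% of all genes tested were called lower. Of 16 partner factors, 14 were tested at the first step of the TBGR mouse, 1 was called lower and 2 higher, where 2.45% and 12.5% of all genes tested were. Bach2, which holds T cells in a resting state, was the lower one (-1.27), and Ikzf3 (2.07) and Lmo4 (1.06) were the higher ones. At the third step Bach2 (-1.23) and Foxo1 (-1.21) were called lower of 13 tested, where 11.5% of all genes tested were. Runx1 had log2 ratios of -0.33, -0.54 and -0.20 over the 3 steps and was not called.

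Of 11 factors of the effector side 6 were tested at the third step of the TBGR mouse, 3 were called higher and 0 lower, where 5.61% and 11.5% of all genes tested were, with a median log2 ratio of 1.17 beside -0.18 over all genes tested. Id2, an inhibitor of E proteins, was at 1710 against 453 CPM (1.92), Tbx21 at 165 against 48.0 CPM (1.77) and Bhlhe40 at 102 against 10.1 CPM (3.30). At the second step, where Tcf7 was level, 2 of 5 were called higher, Id2 (1.22) and Tbx21 (4.83), where 2.73% of all genes tested were. Tbx21 is the gene that the T-bet reporter of the gates follows. Its calls at both steps therefore follow from the sort and are no separate result. At the first step 2 of 4 were called higher, Klf2, which controls exit from the thymus (1.72), and Runx3, which represses Cd4 (1.16). In the C-mycfl/fl and C-mycD/DCd4 mice 3 of 3, Id2, Klf2 and Runx3, were called higher at the first step, where 15.6% and 14.9% of all genes tested were. Of 9 co-regulators of TCF-1 and LEF-1, 5 were tested at the third step, and Ldb1 was called higher (1.48), where 5.61% of all genes tested were. At the second step Bcl9 (-2.57) and Ldb1 (-1.57) were called lower and Tle4 higher (1.06) of 6 tested, where 4% and 2.73% of all genes tested were. Of 8 genes of the Notch response, 0 had enough transcripts in the TBGR mouse at any step. In the C-mycD/DCd4 mouse the 2 tested, Notch1 (-1.56) and Ptcra (77.1 and then 0 CPM), were called lower at the first step, where 8.85% of all genes tested were.

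Likeness in level over all 28 sums of library and population set Bcl11b beside Satb1 and Tcf7 beside Sox4 and Lef1. The measure was Pearson's r of log2(CPM + 10) among 2769 genes with at least 500 transcripts, given as a description, since the sums share 3 mice, plates and depth. Nearest to Tcf7 were Sox4 (0.89), Tspan13 (0.84) and Lef1 (0.84). The 2 genes nearest to both Bcl11b (0.92 and 0.90) and Satb1 (0.91 and 0.90) were E430014B02Rik and 5830444F18Rik, and Satb1 was the third nearest to Bcl11b (0.89). For Sox4 the nearest were Camk4 (0.92), a kinase of calcium signalling, and Rhoh (0.89). For Tox it was Nr4a1 (0.84), a factor induced by receptor signals, for Myb Cyb5a (0.83), for Gata3 Itpr2 (0.88) and for Ets1 Son (0.92). Camk4, Nr4a1 and the other genes named here were chosen by rank alone.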

How the data were processed

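The deposited tables held, per the file headers, 1 value per gene and cell barcode. These values were expected (estimated) counts: the authors aligned CEL-Seq2 reads to merged mouse gene models with BWA 0.6.2-r126, discarded reads that mapped to several loci, and converted the observed molecular barcodes (6 bases, 4096 possible) into transcript numbers. The submitters' notes also name bcl2fastq 2.17.1.14. Values from 3′ ends do not separate isoforms, and levels were not compared between genes.

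Cells with a sorted population and at least 2000 transcripts were kept, without mitochondrial genes and spike-ins. 0 columns of other series were present. Values were rounded to whole transcripts, and cells were then summed per library and population, in Python 3.11.15 (numpy 2.4.6, scipy 1.17.1, pandas 2.3.3). Libraries of a population held 94268 to 775264 transcripts. Ratios of CPM were computed with 0.5 added to each sum, with exact 95% intervals for counting error. No test between groups was made, since the series text names 1 mouse per genotype, and the code was tested on simulated data. Calls needed 50 transcripts in either group, a log2 ratio of at least 1 and libraries apart. Pseudotime used scanpy 1.11.5 with 20 components, 15 neighbours and 10 bins. Plots used matplotlib 3.10.9.

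Named genes were the 9 members, the called genes of the fixed lists and the genes nearest in level. The members and lists were chosen with earlier results of these data known. Groups came from the labels. Alternatives were other transcript minimums, thinning, equal weight per cell, another added count, centring on the median gene, totals without ribosomal protein genes, removal of cells with markers of another type, no minimum count, and leaving out each library.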

Additional observations from a re-analysis of the deposited data

Results flagged for a closer look

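In 36 groups of 4 libraries examined, 1 held a library far from its neighbours, where chance marks about 1 group in 20. It was Bcl11b in CD122+T-bet int cells of the C-mycfl/fl mouse, at 56.0 CPM in the third library against 68.6 to 70.3 CPM in the others, where the gap made up 0.882 of the range. That library held 9 transcripts of Bcl11b in this population.

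Tox, Myb and Ets1 went opposite ways at the first step in 2 mice, in libraries that did not overlap. How many of all genes tested did so was not counted. The median of all genes tested was 0.33 in the TBGR mouse and 0.05 in the C-mycD/DCd4 mouse. Tox had a log2 ratio of -0.54 in the TBGR mouse and of 0.72 in the C-mycD/DCd4 mouse. Myb had log2 ratios of 0.63 and -0.87, and Ets1 of -0.54 and 0.27. The ratio of Myb in the C-mycD/DCd4 mouse was 0.37 without cells that carried at least 2 markers of B cells, of myeloid cells or of gamma-delta T cells. The markers of dividing cells went from 107 and 213 to 797 and 1044 CPM at this step in the TBGR mouse and from 2081 and 2229 to 241.4 and 241.5 CPM in the C-mycD/DCd4 mouse, and their part was not tested. At the last step Gata3 had a log2 ratio of 0.87 in the TBGR mouse and of -0.38 in the C-mycfl/fl mouse. These differences were not tested, and the mice differ in both age and genotype, which cannot be told apart.

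Outside the kept cells, 116 transcripts of the members lay on barcodes without a cell over 20 libraries, 30 of them in the second CD122+T-bet high library of the TBGR mouse, where they were 5.25% of all member transcripts.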

How the results depend on the processing

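No paired analysis was possible because no test was fitted in which a replicate block could enter. The C-mycfl/fl libraries each hold both populations, and their values were compared within libraries. No member's ratio that was called changed sign under the alternatives run, while some uncalled ratios did, such as that of Myb at the first C-mycD/DCd4 step, which turned from -0.87 to 0.37 without cells that carried markers of another type. With cells thinned to 2000 transcripts, 4 members were called lower at the first TBGR step in place of 2, 1 at the second in place of 3, and 2 higher at the third in place of 1. With equal weight per cell these were 4 lower at the first step and 2 higher at the third. Centring on the median gene gave 5 lower at the first step, 2 higher at the third, and 1 higher in place of 5 for C-mycD/DCd4 over C-mycfl/fl CD122-T-bet- cells. Without cells that carried markers of another type, 4 were lower at the first TBGR step, 1 at the second, 1 at the third in place of 4, 0 higher at the third in place of 1, and 1 lower at the last C-mycfl/fl step in place of 3. Of the calls lost at the third TBGR step in this way, Lef1 (-1.10), Sox4 (-4.83) and Tox (-2.35) stayed past 2-fold. With no minimum count 5 were lower at the last C-mycfl/fl step. The cause of these changes was not tested, and the marker filter took out 114 of 147 TBGR CD122+T-bet high cells.

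With each library left out in turn, 2 to 4 members were lower and 0 to 1 higher at the first TBGR step, 2 to 3 lower and 0 higher at the second, and 4 lower and 0 to 1 higher at the third. In the C-mycfl/fl mouse 3 to 5 were lower at the first step and 3 at the last, with 0 higher. In the C-mycD/DCd4 mouse 2 to 4 were lower and 0 higher. Between the genotypes 4 to 7 were higher and 0 lower, in both populations. Depth limits Myb and late Sox4, with 3 and 1 transcripts in TBGR CD122+T-bet high cells.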
